A study of Mus musculus with 6 samples.

Results

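The core circadian clock of the liver is described here through 10 genes. They are the activator genes Arntl, Clock and Npas2, the repressor genes Per1, Per2, Per3, Cry1 and Cry2, and the Rev-erb genes Nr1d1 and Nr1d2. They were chosen by name and not by a threshold on their values, but with earlier results of these data known. Each was found on 1 row of the deposited matrix, so that 10 of 56534 measured genes or loci are described. Bulk liver RNA came from C57BL/6 mice fed for 16 weeks with a diet that drew 60% of its calories from fat. The control group (CON, n = 3 libraries) was wild type. The other group (LKO, n = 3 libraries) is labelled CD36-/- and, in the study's title, as lacking CD36 in hepatocytes only. CD36 takes up long-chain fatty acids at the cell surface. All animals shared the strain and the diet, and the labels used here name no Cre driver, sex, age or hour of collection. Whether each library is another animal is not said, and p-values therefore cover only the scatter of these 6 libraries, which may be technical.

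The clock of a cell is a loop of transcription and repression with a period of about a day. ARNTL (also called BMAL1) pairs with CLOCK or NPAS2 and binds E-boxes in the promoters of the Per, Cry and Rev-erb genes. PER and CRY proteins then return to the nucleus and block that pair. The REV-ERB proteins repress Arntl and Npas2 through ROR elements, which the ROR receptors activate. Arntl and Npas2 RNA therefore peak at the opposite time of day to Nr1d1 and to the output gene Dbp. In mouse liver the Per genes follow Nr1d1, Cry1 comes later than the Per genes, and Clock varies little over the day. Feeding time sets the phase of this loop in the liver.

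The short elements through which the loop acts were looked up in promoter windows of 300 bases (250 before and 50 after each transcription start, from RefSeq, build GRCm38.p6), in which 9 of the 10 genes had an entry by symbol (not Per2). The sequences shown are the stretches of the genes in which an element was found. They are shown so that these letters can be read beside the values that follow. Capitals mark the match, positions are counted from the transcription start, and each stretch reads 5′ to 3′ on the strand of its gene.
Cry1, chr10:85185079-85185163, minus strand: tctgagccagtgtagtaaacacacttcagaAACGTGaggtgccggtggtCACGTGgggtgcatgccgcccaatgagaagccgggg
Cry2, chr2:92434200-92434265, minus strand: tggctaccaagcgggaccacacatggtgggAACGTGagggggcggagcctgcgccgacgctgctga
Per1, chr11:69098753-69098818, plus strand: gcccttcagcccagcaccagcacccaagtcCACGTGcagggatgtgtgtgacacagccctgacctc
Nr1d1, chr11:98775378-98775435, minus strand: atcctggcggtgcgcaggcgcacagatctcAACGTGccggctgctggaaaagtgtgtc
Per3, chr4:151044786-151044900, minus strand: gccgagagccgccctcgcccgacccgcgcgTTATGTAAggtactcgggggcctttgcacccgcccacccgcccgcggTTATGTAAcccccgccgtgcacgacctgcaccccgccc
Arntl, chr7:113207530-113207559, plus strand: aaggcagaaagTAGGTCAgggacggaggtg

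Both strands were searched. The E-box CACGTG was found in Per1 (position -166 to -161) and Cry1 (-60 to -55). Its variant CACGTT, read as AACGTG on these strands, was found in Cry1 (-79 to -74), Cry2 (-166 to -161) and Nr1d1 (-28 to -23). None of the matches shares a base with another. The D-box, TTATGTAA or TTACGTAA, which DBP, TEF and HLF bind, was found at both marked places of Per3. The core of the ROR element, TAGGTCA or TGGGTCA, was found in Arntl within the transcribed bases (31 to 37) of 1 of its 2 windows. The cAMP element TGACGTCA was found in none of these windows, and no motif was found in the windows of Clock, Npas2 and Nr1d2. Among 32544 distinct windows of all genes, 7.17% held CACGTG, 4.71% CACGTT, 1.05% a D-box, 6.48% a ROR core and 1.80% the cAMP element. A match describes these letters and is no evidence of binding.

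Between 10614 and 11311 genes reached 1 FPKM in a library (FPKM are fragments counted per length of gene and per mapped fragments of the library). The depth in reads is unknown. The summed FPKM ran from 831928 to 976871 in CON and from 959442 to 1271880 in LKO, so that the scale of the libraries differs. Cd36 itself was at 61.95, 26.49 and 19.66 FPKM in CON 1, 2 and 3 and at 2.73, 3.70 and 10.22 FPKM in LKO 1, 2 and 3, with the LKO libraries all below the CON libraries. Over the 11104 genes tested (mean FPKM of at least 1), the median log2 fold change of LKO against CON was -0.23, and 0.01 after median-ratio scaling of the libraries. Differences of single genes are to be read against that shift. Gene length also set libraries apart. Across the tested genes, longer genes tended to be low in LKO 1 and LKO 2 (Spearman rho -0.33 and -0.30, a description across genes) and high in LKO 3 (0.21) and the CON libraries (0.10 to 0.29).

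In the CON libraries the Rev-erb genes were the most abundant of the 10 (levels in FPKM, which are per length). Nr1d1 had a mean of 36.2 ± 11.2 FPKM (SD, n = 3), followed by Nr1d2 at 16.1 ± 3.42, Cry2 at 9.69 ± 1.51 and Per1 at 6.46 ± 1.41 FPKM. Per2 was at 4.82 ± 0.997, Clock at 3.98 ± 0.26, Per3 at 2.65 ± 0.65 and Cry1 at 2.61 ± 0.37 FPKM. Arntl was at 1.79 ± 0.43 and Npas2 at 0.153 ± 0.058 FPKM. In this order the ranges of Per1 and Per2, of Per2 and Clock, of Per3 and Cry1, and of Cry1 and Arntl overlapped between neighbours. All other neighbours were apart in every library. In the LKO libraries Nr1d1 was again first (25.7 ± 14.4 FPKM) and Npas2 last (0.293 ± 0.311 FPKM), but only Nr1d2 and Per1 among the neighbours had ranges that did not overlap.

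**Figure D1:**
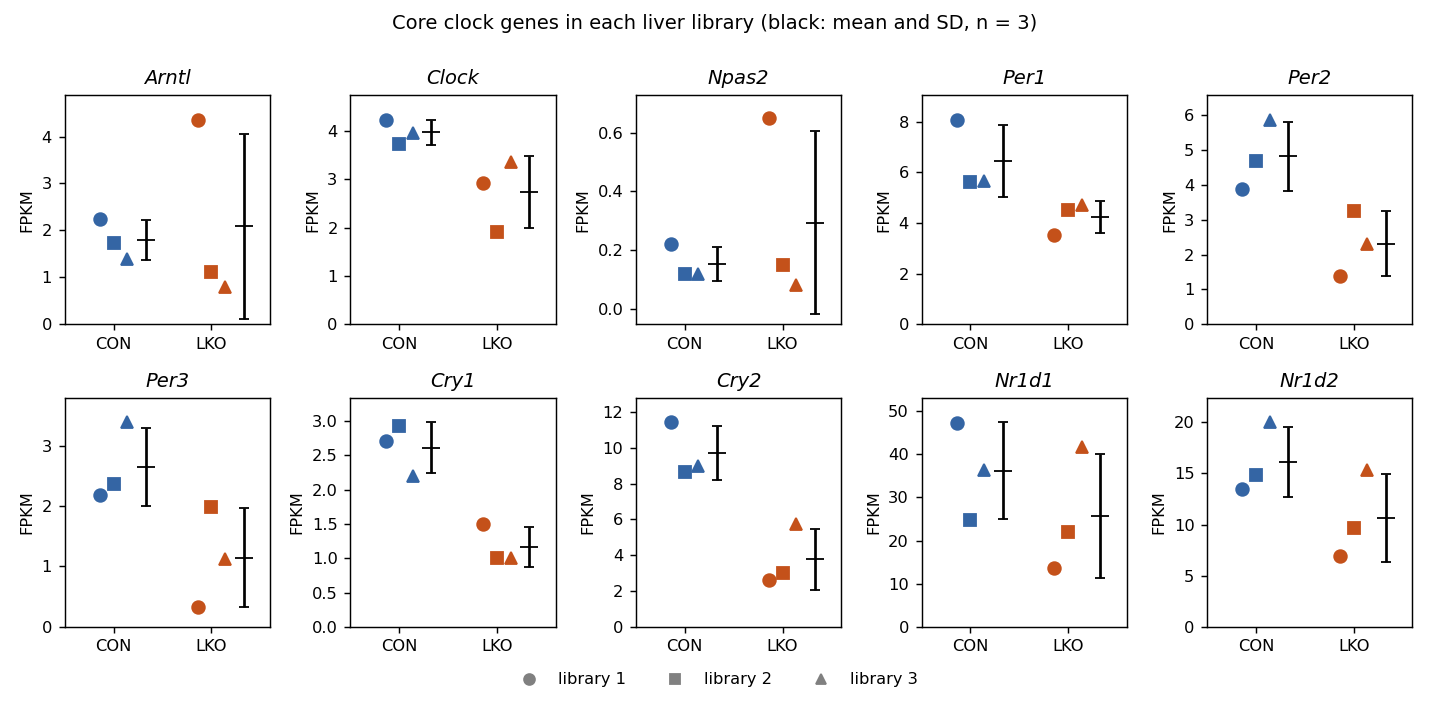
FPKM (vertical axis, its own scale in each panel) of the 10 clock genes in the CON and LKO libraries. Each symbol is 1 library, and the black mark and bar are the mean and SD of 3. LKO 1 (orange circle) is highest for Arntl and Npas2 and lowest for the 3 Per genes, Cry2, Nr1d1 and Nr1d2.

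Of the activators, Arntl (ENSMUSG00000055116) stood out in 1 library. It was at 2.24, 1.73 and 1.39 FPKM in CON 1, 2 and 3 and at 4.36, 1.11 and 0.80 FPKM in LKO 1, 2 and 3. LKO 1 was above every CON library, while LKO 2 and LKO 3 were below every one. The group difference was therefore near 0 (log2 fold change on the log2(FPKM + 1) scale -0.02, SE 0.40, limma adjusted p = 0.982), and it was -0.50 (adjusted p = 0.441) without LKO 1 and 0.17 after median-ratio scaling.

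Npas2 (ENSMUSG00000026077), the partner that can stand in for CLOCK, was also highest in LKO 1, at a very low level. It was at 0.22, 0.12 and 0.12 FPKM in CON and at 0.65, 0.15 and 0.08 FPKM in LKO 1, 2 and 3. LKO 1 was above every CON library and LKO 3 below every one, but LKO 2 lay inside the CON range, unlike for Arntl. Its mean did not reach the filter of 1 FPKM, so it was not in the fit, and an exact permutation test of its 6 values gave p = 0.8 (two-sided). With no filter on low values its log2 fold change was 0.14 (limma adjusted p = 0.690).

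Clock (ENSMUSG00000029238) did not share that pattern. It was at 4.24, 3.73 and 3.96 FPKM in CON and at 2.93, 1.92 and 3.36 FPKM in LKO 1, 2 and 3, with LKO 2 the lowest. The LKO libraries were all below the CON libraries (exact permutation p = 0.1, the smallest that 3 against 3 libraries allow), and the log2 fold change was -0.43 (SE 0.20, limma adjusted p = 0.246). Its gene model of 9744 bases is longer than that of 98.0% of the tested genes. With the length trend of each library removed, its difference was -0.06.

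The Per genes encode repressors of the activator pair. Per1 (ENSMUSG00000020893) was at 8.09, 5.61 and 5.67 FPKM in CON and at 3.53, 4.50 and 4.73 FPKM in LKO 1, 2 and 3. Per2 (ENSMUSG00000055866) was at 3.90, 4.68 and 5.88 FPKM in CON and at 1.39, 3.26 and 2.30 FPKM in LKO. Per3 (ENSMUSG00000028957), the Per gene with the D-boxes shown above, was at 2.19, 2.37 and 3.39 FPKM in CON and at 0.33, 1.98 and 1.13 FPKM in LKO. For each of the 3 the LKO libraries lay below the CON libraries, and LKO 1 was the lowest of the 6.

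The distance between the groups was smallest for Per1. The log2 fold changes were -0.50 (SE 0.20) for Per1, -0.84 (SE 0.26) for Per2 and -0.83 (SE 0.31) for Per3, with limma adjusted p-values of 0.216, 0.180 and 0.199. After median-ratio scaling they were -0.24, -0.61 and -0.63, and without LKO 1 they were -0.39, -0.62 and -0.52. With that scaling, LKO 2 no longer lay below the CON libraries: its deviation from the CON mean was -0.02 for Per1, -0.05 for Per2 and 0.06 for Per3. LKO 1 remained at -0.48, -1.08 and -1.31 for the same genes, and LKO 3 at -0.23, -0.68 and -0.65. Both still lay below every CON library.

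The cryptochrome genes, which encode the partners of PER that hold the activators off DNA, were lower in all 3 LKO libraries than in any CON library. Cry2 (ENSMUSG00000068742) was at 11.42, 8.67 and 8.98 FPKM in CON and at 2.62, 2.99 and 5.72 FPKM in LKO 1, 2 and 3. Cry1 (ENSMUSG00000020038) was at 2.71, 2.92 and 2.20 FPKM in CON and at 1.5, 1.0 and 1.0 FPKM in LKO. The ratio of the means, CON over LKO, was 2.57 for Cry2 and 2.24 for Cry1.

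Cry2 had the largest difference of the 9 tested members (log2 fold change -1.21, SE 0.27) and the smallest p, but did not pass over all genes (limma adjusted p = 0.165). Cry1 was at -0.74 (SE 0.19, adjusted p = 0.175). Both were lower in every alternative that was run: Cry2 between -1.48 and -0.78 in 19, and Cry1 between -1.11 and -0.35 in 18. These alternatives refit the same libraries. The limma adjusted p of Cry2 ranged from 0.00118 to 0.576 over them. The smallest came from a fit with library weights that did not converge, in which 37.6% of all genes passed as lower. The next were 0.0117 without LKO 3 (18.9% of all genes) and 0.0252 with the length trend also removed (5.62%). In LKO 1 the Cry1 level was the highest of the LKO group, while that of Cry2 was the lowest of all libraries, and Cry1 over Cry2 was 0.573 there against 0.175 to 0.337 in the other 5 libraries.

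The Rev-erb genes encode nuclear receptors that bind haem and repress transcription. Nr1d1 (ENSMUSG00000020889) was at 47.32, 24.88 and 36.44 FPKM in CON and at 13.57, 21.95 and 41.65 FPKM in LKO 1, 2 and 3. Nr1d2 (ENSMUSG00000021775) was at 13.53, 14.85 and 20.01 FPKM in CON and at 6.88, 9.67 and 15.38 FPKM in LKO. For both, LKO 1 was lowest and LKO 2 was below the CON range, but LKO 3 lay inside it.

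The groups thus overlapped for both Rev-erb genes, with log2 fold changes of -0.57 (SE 0.40) for Nr1d1 and -0.60 (SE 0.29) for Nr1d2 (limma adjusted p = 0.389 and 0.252). Without LKO 1 they were -0.20 and -0.36, and with median-ratio scaling as well 0.10 and -0.06. In the GENCODE M21 annotation an exon of Nr1d1 shares 263 bases with one of Thra, a thyroid hormone receptor gene on the opposite strand, and reads there cannot be told apart if the counting did not use strand, which is not given in the sources used here. Thra was at 3.77 to 8.86 FPKM in the 6 libraries. The antisense neighbours of Cry2 and Arntl, D930015M05Rik and Gm45355, were at no more than 0.08 FPKM and at 0 FPKM.

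No member passed an adjusted p of 0.05, which 0.00901% of all tested genes did in the lower direction (1 of 11104). At an unadjusted p under 0.05 (limma), 5 of the 9 tested members were lower in LKO (Per1, Per2, Per3, Cry1 and Cry2) and 0 higher, where 18.9% of all tested genes were lower (2099, against 361 higher). The LKO libraries lay wholly below the CON libraries for 6 of them, those 5 and Clock, which held for 24.3% of all tested genes. After median-ratio scaling the counts were 2 (Cry1 and Cry2) against 7.96% of all genes (884 lower, 1136 higher), and 3 (with Clock) against 11.1%. The median log2 fold change of the 9 members was -0.60 as deposited, against -0.23 for all genes, and -0.33 after that scaling, against 0.01.

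The counts moved with single libraries. Without LKO 1, 3 members were lower at an unadjusted p under 0.05 (Per2, Cry1 and Cry2), against 10% of all genes. Without LKO 3, 3 members passed an adjusted p of 0.05 over all genes (Cry1 at 0.0474, Cry2 at 0.0117 and Nr1d2 at 0.0370, limma), but so did 18.9% of all genes in the lower direction. In that fit both remaining LKO libraries are those with a negative length trend. With the length trend removed, and LKO 3 left out, 1 member passed (Cry2, adjusted p = 0.0252), against 5.62% of all genes. With the trend removed in all 6 libraries, Cry1 and Cry2 were the 2 members lower at an unadjusted p under 0.05, against 8.47% of all genes. In bulk tissue, fewer cells of a type and less RNA per cell cannot be told apart.

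**Figure D2:**
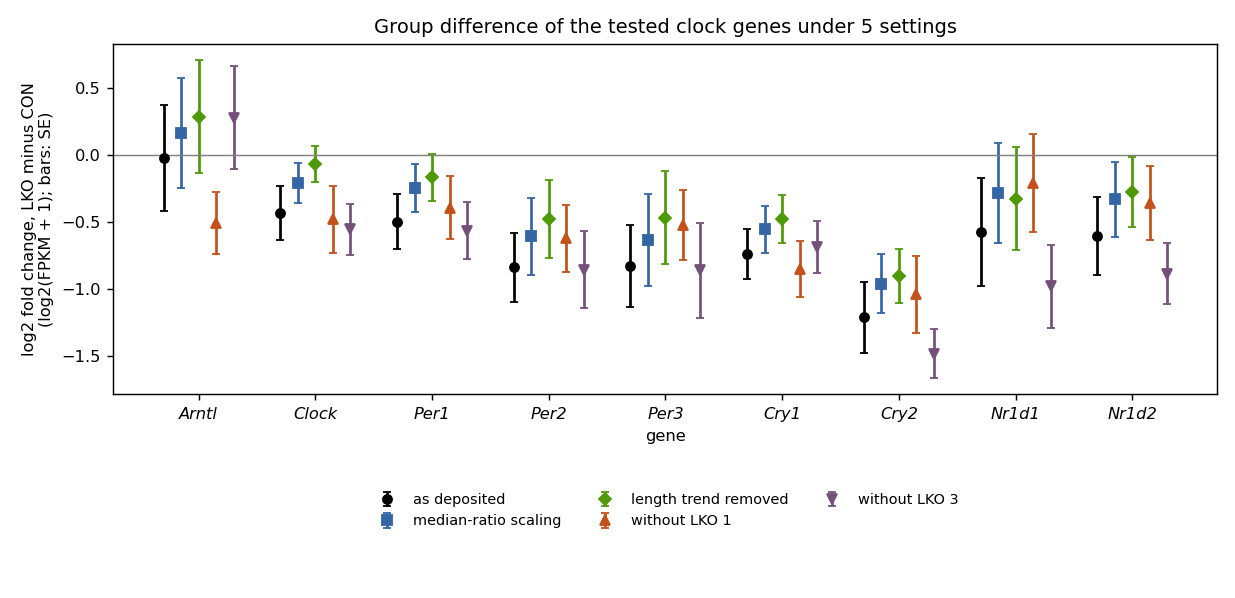
Log2 fold change of LKO against CON on the log2(FPKM + 1) scale (vertical axis, bars are SE) for the 9 tested clock genes under 5 settings of libraries or scaling. Per2, Per3, Cry1, Cry2 and Nr1d2 stay below 0 by more than 1 SE in each setting shown, while Arntl lies on both sides of 0.

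The libraries were then read by genes of opposite daily phase, as ratios of FPKM within a library, in which the scale of a library cancels. Its length trend does not cancel where the genes of a pair differ in length. Arntl (3995 bases) is shorter than Per3 (5999) and Clock (9744), and longer than Nr1d1 (2721). Cry1 (3026) is shorter than Per2 (5833) and Cry2 (3976). The part of the trend in these ratios was not tested. Arntl over Nr1d1 was 0.0473, 0.0695 and 0.0381 in CON 1, 2 and 3 and 0.321, 0.0506 and 0.0192 in LKO 1, 2 and 3. The ratio of LKO 1 was 4.62 times that of the next library, and LKO 3 had the lowest. Among the 5 libraries other than LKO 1, the highest ratio was 3.62 times the lowest, with CON and LKO libraries interleaved. LKO 1 was thus the library with most Arntl RNA for its Nr1d1 RNA.

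LKO 1 was also highest in the other pairs that set Arntl, Npas2 or Cry1 against a gene of another phase or family. The pairs of Arntl with Per3 and with Clock were chosen after the values were seen, and reuse its LKO 1 value. Arntl was highest and Per3 lowest in LKO 1, so their ratio could only be highest there. Npas2 over Dbp, the latter a strongly rhythmic output gene, was 0.00399, 0.00221 and 0.00128 in CON and 0.131, 0.00244 and 0.00281 in LKO 1, 2 and 3, with LKO 1 at 32.7 times the next. The Npas2 values are low and rounded to 2 decimals, which limits that ratio. Arntl over Per3 was 13.2 in LKO 1 and 0.410 to 1.02 in the other 5 libraries, 12.9 times the next. Cry1 over Per2 set LKO 1 apart by less, at 1.08 against 0.307 to 0.695. Arntl over Clock was 1.49 in LKO 1 and 0.238 to 0.578 in the others. Pairs with Cry2 as the numerator did not single out LKO 1 in the same way. Cry2 over Nr1d1 was highest in CON 2 (0.348) and lowest in LKO 2 (0.136), with LKO 1 at 0.193, and Cry2 over Per2 was highest in CON 1 (2.93) and lowest in LKO 2 (0.917), with LKO 1 at 1.88. Cry2 over Clock was lowest in LKO 1, at 0.894 against 1.56 to 2.69 in the others.

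Ratios within a family were mixed. Nr1d1 over Nr1d2 was 1.97 in LKO 1, inside the 1.68 to 3.50 of the other libraries. Per1 over Per2 was 2.54 in LKO 1 and 0.964 to 2.07 in the others. Per3 over Per2 was 0.237 in LKO 1 and 0.491 to 0.607 in the others, so that Per3 was low there even relative to Per2. Clock over Npas2, both partners of ARNTL, was 4.51 in LKO 1 and 12.8 to 42.0 in the others. Over all 10 genes, LKO 1 was the highest library for 2 (Arntl and Npas2) and the lowest for 6. A CON library was highest for the other 8 and lowest for 0. The share of all genes with such extremes was not counted, so these counts only describe the 10 genes. Of the 11104 tested genes, 7954 had a negative log2 fold change as deposited. The labels give no hour of collection, and its part in these values was not tested.

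**Figure D3:**
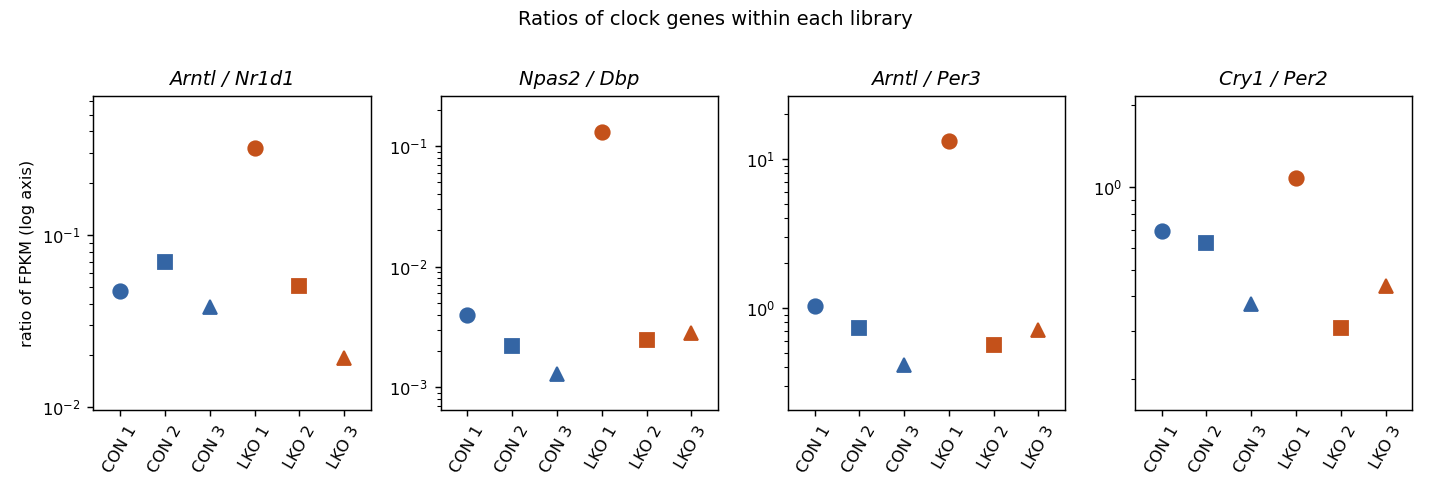
Ratio of FPKM (log axis) of 4 pairs of clock genes in each library, CON in blue and LKO in orange. LKO 1 is highest in every panel, from 1.55 times the next library for Cry1 over Per2 to 32.7 times for Npas2 over Dbp.

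The output factors of the loop were next, which bind D-boxes such as those of Per3. Dbp was at 55.11, 54.35 and 93.56 FPKM in CON and at 4.98, 61.57 and 28.51 FPKM in LKO 1, 2 and 3. Its range over the 6 libraries was 18.8-fold, with LKO 1 lowest and LKO 2 inside the CON range (log2 fold change -1.58, SE 0.75, limma adjusted p = 0.250). Without LKO 1 the difference of Dbp was -0.63 (adjusted p = 0.468), and that of Tef was -0.55 against -0.995 with all libraries. Tef was at 34.84 to 37.28 FPKM in CON and at 8.95, 22.73 and 25.77 FPKM in LKO, and Nfil3, which represses through D-boxes and has the opposite phase, at 10 to 12.23 FPKM in CON and at 16.39, 7.47 and 7.60 FPKM in LKO. Nfil3 was thus highest in LKO 1, as Arntl and Npas2 were.

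Hlf, the other D-box factor, had a different pattern, with all 3 LKO libraries alike. It was at 16.44, 14.51 and 13.34 FPKM in CON and at 4.07, 4.16 and 6.10 FPKM in LKO (log2 fold change -1.46, SE 0.20, limma adjusted p = 0.163; -1.20 after median-ratio scaling and -1.38 without LKO 1). Of this list of 4 genes, Tef and Hlf were lower at an unadjusted p under 0.05 and 0 higher, and after median-ratio scaling Hlf alone was lower. Without LKO 1, 3 were lower at that threshold (Tef, Hlf and Nfil3), against 10% of all genes. With median-ratio scaling as well the count was 1, against 3.93%.

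Of the other transcription factors of the loop, Rora encodes a receptor that activates Arntl through ROR elements such as the one shown above. It was at 5.72, 4.76 and 6.06 FPKM in CON and at 3.19, 2.23 and 4.25 FPKM in LKO 1, 2 and 3, with LKO 2 the lowest and no overlap of the groups. Its log2 fold change was -0.65 (SE 0.22, limma adjusted p = 0.191), and -0.41 after median-ratio scaling. Its gene model is long (10878 bases), and with the length trend of each library removed the difference was -0.28. Rorb was listed at 0 in all libraries.

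Bhlhe40 and Ciart, repressors whose own genes respond to the activators, were lowest in LKO 1. Bhlhe40 was at 39.03, 33.55 and 37.53 FPKM in CON and at 7.11, 13.37 and 31.43 FPKM in LKO 1, 2 and 3. Ciart was at 4.14, 7.18 and 6.59 FPKM in CON and at 0.49, 5.25 and 1.85 FPKM in LKO. Bhlhe41 had a mean under 1 FPKM, with 0.91 to 1.72 FPKM in the CON and 0.42 to 1.10 FPKM in the LKO libraries. Rora, Bhlhe40 and Ciart were each lower at an unadjusted p under 0.05 but not over all genes (limma adjusted p = 0.191 to 0.212). After median-ratio scaling Bhlhe40 and Ciart no longer were (unadjusted p = 0.0580 and 0.129, limma). Without LKO 1 their log2 fold changes were -0.80 and -0.70, against -1.27 and -1.20 with all libraries.

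**Figure D4:**
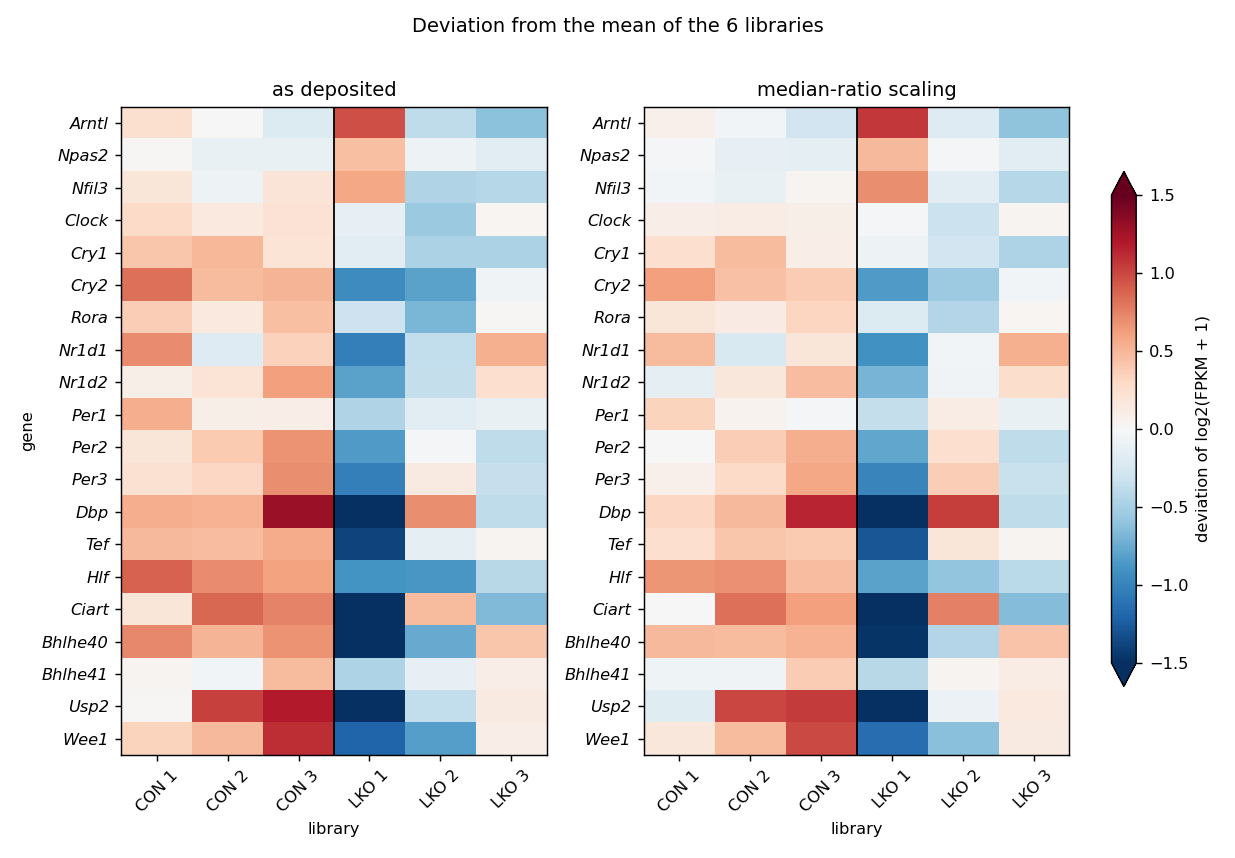
Deviation of log2(FPKM + 1) from the mean of the 6 libraries (colour, red higher and blue lower, saturated beyond 1.5) for the clock genes and genes of the loop (rows) in each library (columns), as deposited and after median-ratio scaling. LKO 1 is red for Arntl, Npas2 and Nfil3 and at its bluest for Dbp (-2.69 as deposited), while Hlf is blue in all 3 LKO libraries (-0.90 to -0.42 as deposited).

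Of 14 tested enzymes and co-regulators that act on clock proteins, 7 were lower at an unadjusted p under 0.05 and 0 higher. The count was 2 after median-ratio scaling, 1 without LKO 1 and 1 with the length trend removed, where 1 of 14 is 7.14% against 8.47% of all genes. The list median was -0.58, against -0.23 for all genes, and -0.31 against 0.01 after that scaling. Gsk3b, a kinase of several clock proteins, had means of 4.28 ± 0.255 (CON) and 2.54 ± 0.582 FPKM (LKO; SD, n = 3). Fbxw11, a part of the ubiquitin ligase for PER, was at 9.28 ± 1.07 and 5.08 ± 2.27 FPKM, and Prkaa2, a subunit of the kinase AMPK that marks CRY1 for decay, at 5.39 ± 1.18 and 2.82 ± 1.56 FPKM. Usp2, a deubiquitinase whose RNA is itself rhythmic, was at 5.70, 12.57 and 14.16 FPKM in CON and at 0.66, 4.14 and 6.29 FPKM in LKO 1, 2 and 3. The limma adjusted p of these 4 was 0.186 to 0.206, and Usp2 was at -0.86 without LKO 1 against -1.49 with all libraries (log2 fold change).

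Rhythmic liver output genes went both ways. Of 12 tested, 4 were lower and 1 higher at an unadjusted p under 0.05, and none passed over all genes. Wee1, a kinase of the cell cycle driven by E-boxes, was at 3.39, 3.86 and 6.50 FPKM in CON and at 0.51, 0.97 and 2.74 FPKM in LKO 1, 2 and 3. Nampt, the enzyme that limits NAD+ synthesis, had means of 13.3 ± 1.31 (CON) and 7.22 ± 2.37 FPKM (LKO), and Ppara, the fatty acid receptor, at 102 ± 9.41 and 67.2 ± 10.2 FPKM. Elovl3, a fatty acid elongase, was the gene that was higher, at 133.21, 148.71 and 126.47 FPKM in CON and at 385.12, 192.66 and 220.50 FPKM in LKO 1, 2 and 3 (log2 fold change 0.90, SE 0.27, limma adjusted p = 0.180). Its groups did not overlap, and LKO 1 was again the extreme library.

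Genes of the signals that reset the liver clock were listed as well. Of 10 glucocorticoid-induced genes (median -0.31) and 8 heat and cold responsive genes (median -0.43), 0 were lower or higher at an unadjusted p under 0.05 (limma). The smallest p of the former belonged to Tat (582 ± 66.8 and 395 ± 121 FPKM in CON and LKO), Klf9, Mt2 and Sgk1, and of the latter to Hsph1 (97.2 ± 41.0 and 61.6 ± 42.2 FPKM), Hspa1a, Cirbp and Hsp90aa1. Of 7 tested CREB and immediate early genes (median -1.05), 4 were lower and 0 higher. Nr4a1 was at 3.93, 4.04 and 5.85 FPKM in CON and at 0.93, 0.86 and 1.52 FPKM in LKO, and Dusp1 at 41.1 ± 6.95 and 18.0 ± 5.41 FPKM. Btg2 was at 8.36 ± 1.34 and 3.65 ± 1.61 FPKM and Fos at 5.29 ± 2.20 and 2.0 ± 1.39 FPKM. The limma adjusted p of these 4 was 0.163 to 0.195. All of these lists are to be read against the 18.9% of all tested genes that were lower at that threshold.

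**Figure D5:**
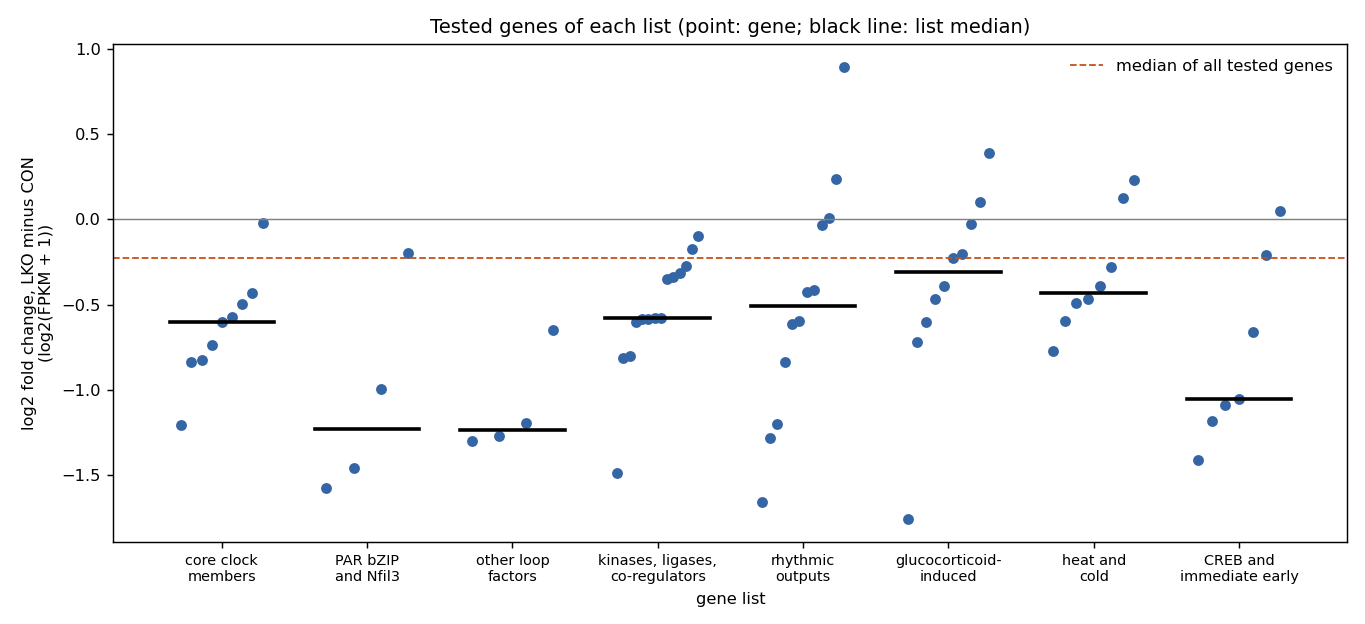
Log2 fold change of LKO against CON (vertical axis, log2(FPKM + 1) scale) of each tested gene (point) by list, with the list median (black line) and the median of all tested genes (dashed, -0.23). The PAR bZIP and other loop factors have the lowest medians with all libraries, -1.23 each (-0.59 and -0.70 without LKO 1, where the CREB list is lowest at -0.87), and the glucocorticoid-induced list lies nearest to the dashed line, at -0.31.

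The genes whose values followed Arntl most closely across the 6 libraries were Cyp4f17, Naa35, Ddc, Tspyl2 and Arl4a. Likeness was the root mean square difference of centred log2(FPKM + 1), searched over 9874 named genes, and was 0.156 to 0.173 for these 5, against a spread of 0.507 for Arntl itself. Ddc, which makes dopamine and serotonin, was at 36.66 FPKM in LKO 1 and at 12.90 to 28.61 FPKM in the other libraries. For Nr1d1 (spread 0.593) Retreg1, Klf9, Gpr146 and Klf12 were among the 5 closest, at 0.209 to 0.236. Klf9, a transcription factor that is also on the glucocorticoid list, was at 34.36, 27.90 and 30.55 FPKM in CON and at 14.75, 19.68 and 36.52 FPKM in LKO 1, 2 and 3. With 6 libraries that share a scale and a length trend, many genes can come this close, and these are given as a description.

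Hepatocyte markers were abundant in all libraries, at a summed 55851 to 77787 FPKM in the CON and 49481 to 59168 FPKM in the LKO libraries over 8 genes. The 6 Kupffer cell markers summed to 107 to 162 FPKM in CON and to 82.0, 165 and 150 FPKM in LKO 1, 2 and 3, and the 7 sinusoidal endothelial markers to 39.2 to 120 FPKM in the CON and 51.5 to 78.0 FPKM in the LKO libraries. Stellate cell markers (6) were at 103 to 108 FPKM in the CON and 97.9 to 144 FPKM in the LKO libraries, and those of cholangiocytes (5) at 29.4 to 51.5 and 34.1 to 74.9 FPKM. Those of neutrophils and monocytes (5) were at 6.56 to 11.5 and 4.02 to 6.93 FPKM. Lymphocyte markers (6) did not overlap as a sum, at 2.41 to 3.22 FPKM in the CON and 3.39 to 4.54 FPKM in the LKO libraries. Of these 6, only 1 reached the filter of 1 FPKM, and 2 lay above CON in every LKO library when taken singly. With no filter on low values, 781 of 24934 genes did so. Of the other lists, 1 marker each of hepatocytes, cholangiocytes, and neutrophils and monocytes also lay wholly above CON, and 1 hepatocyte marker wholly below. The adipocyte markers (4) summed to at most 0.11 FPKM, with Lep and Retn at 0 in all libraries. The part of these other cells in the values of the clock genes was not tested.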

How the data were processed

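Liver RNA of 6 libraries (3 CON, 3 LKO) was extracted with TRIzol and DNase-treated, and Illumina libraries were made, per the labels. The authors deposited FPKM per gene and library, rounded to 2 decimals, with a gene length (per the file headers). The submitters' processing notes name HISAT2, StringTie and mm9. Not given in the sources used here are versions, annotation and the strand of counting. Of 56536 lines, 2 held no values. The depth in reads is unknown, so no intervals from counts are given, and a fold change on the log2 scale understates low genes.

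The 11104 genes whose FPKM averaged 1 or more were fitted with limma 3.58.1 (R 4.3.3; lmFit, eBayes with trend) on log2(FPKM + 1), with group as the only term, two-sided, with Benjamini-Hochberg adjustment over all genes and a threshold of 0.05. Single genes were also tested by exact permutation (SciPy 1.17.1), where 3 against 3 allow no p below 0.1. Median-ratio scaling divides each library by its median ratio to the gene-wise geometric mean. The length trend was a loess curve (span 0.3) of each library's deviations on log length, and removing it also centres the library. The fit was tested on simulated data. Other settings of scaling, filter, pseudocount, weights and libraries were run, of which 2 were chosen after seeing the data. The comparison of protein sequences was not made. The 10 genes, the lists and the naming rule were chosen with earlier results of these data known. All 10 clock genes, the PAR bZIP and loop factors, up to 4 genes of smallest p per other list, and the 5 closest to Arntl and to Nr1d1 were to be named, of which some are not reported here. The pairs of the ratios other than Arntl with Nr1d1, Npas2 with Dbp and Cry1 with Per2 were chosen after seeing the data, as were ratios with no pseudocount.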

Additional observations from a re-analysis of the deposited data

How the results depend on the processing

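Per2, Per3, Per1, Cry1, Cry2, Clock and Nr1d2 were lower in LKO in each of the 18 or 19 alternatives that gave them a value, and Nr1d1 in 18 of 19. The exception was median-ratio scaling without LKO 1, with 0.10. These alternatives refit the same libraries, and some of them leave the estimate unchanged, so a constant sign is not separate support. As fitted, 7954 of 11104 tested genes were lower in LKO. Arntl, at -0.02, was higher under median-ratio scaling (0.17), quantile normalization (0.18), removal of the length trend (0.29), that removal without LKO 3 (0.68) and array weights (0.97), and ranged from -0.50 to 0.28 over the fits that left out 1 library. The array weights gave LKO 1 a weight of 13.85 and the other libraries 0.196 to 1.53, and their estimation did not converge. With them 8 members were lower past an adjusted p of 0.05, as were 37.6% of all genes.

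Members lower at an adjusted p under 0.05 numbered 0 as fitted, 1 with the length trend removed and LKO 3 left out, and 0 to 3 over the fits that left out 1 library. Of all genes, 0.00901%, 5.62% and 0 to 18.9% were called in the same way. At an unadjusted p under 0.05 there were 5, and 2 under median-ratio scaling, quantile normalization, removal of the length trend, or median-ratio scaling without LKO 1. The share of all genes was 18.9% as fitted, and 7.96%, 9.68%, 8.47% and 3.93% in those settings in turn. There was 1 with a filter at a mean FPKM of 5 (4 members tested) or with the length trend removed and LKO 3 left out, 8 with array weights, and 3 (without CON 3 or LKO 1) to 8 (without LKO 3) over the fits that left out 1 library. The shares of all genes were 20.7%, 16.9% and 42.1% in turn, and 12.6%, 10% and 32.8% without CON 3, LKO 1 and LKO 3. The LKO libraries lay below the CON libraries for 6 members, for 3 under median-ratio scaling (also without LKO 1) and quantile normalization, and for 2 with the filter at 5 or the length trend removed (also without LKO 3), and for 6 to 8 over the fits that left out 1 library. The share of all genes was 24.3% as fitted, 11.1% under median-ratio scaling (13.9% also without LKO 1) and 13% under quantile normalization. It was 26% with the filter at 5 and 11.8% with the length trend removed (27.4% also without LKO 3). Over the fits that left out 1 library it ran from 26.4% to 46.3%. Of 59 tested genes of the other lists, 21 were lower at an unadjusted p under 0.05, 10 under median-ratio scaling, 9 with the length trend removed and 38 with array weights. With the filter at 5, 12 of 45 tested genes were lower, and 5 of 60 under median-ratio scaling without LKO 1. Over the fits that left out 1 library, 12 to 25 of 59 or 60 were lower. The shares of all genes at that threshold are those given above, and 8.18% to 32.8% over the fits that left out 1 library. Causes were not tested.

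With the library number as a replicate block, the counts were 0, 5 and 6 members and 24 genes of the other lists. Of all genes, 0 were lower at an adjusted p under 0.05 (limma) and 20.1% at an unadjusted p under 0.05. For 24.3% the LKO libraries lay wholly below the CON libraries. The members at an unadjusted p under 0.05 were not the same: by limma, Per1 left them and Nr1d2 joined them. Libraries of the same number had correlations of -0.05, 0.17 and 0.07 between their deviations from the group means. CON 2 and LKO 2 correlated best with each other, as did CON 3 and LKO 3, but CON 1 and LKO 1 did not. With 3 libraries per group, these values cannot decide whether the numbers mark pairs.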

Other observations

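Several genes of the lists varied far more within the groups than between them. They were chosen after their values were seen. Lpin1, a phosphatidate phosphatase gene that fasting and glucocorticoids induce, had 3.98, 20.06 and 22.99 FPKM (CON 1, 2 and 3) and 1.66, 11.20 and 71.42 FPKM (LKO 1, 2 and 3). That is a 43.0-fold range, while the group difference was -0.03 (log2 fold change, limma adjusted p = 0.989). Fkbp5, a glucocorticoid-induced chaperone gene, had 7.48, 27.01 and 20.36 FPKM (CON) and 8.08, 15.61 and 40.86 FPKM (LKO). Zbtb16, another glucocorticoid-induced gene, had 1.41, 10.35 and 8.94 FPKM (CON) and 1.86, 4.59 and 9.64 FPKM (LKO). In these 3 genes CON 1 and LKO 1 were the lowest 2 libraries, although CON 1 did not share the high Arntl and low Dbp of LKO 1.

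LKO 3 was above the other LKO libraries in Alas1 and Mt2, as it was in Lpin1, Fkbp5 and Zbtb16. Alas1, the first enzyme of haem synthesis, was at 1435.51 FPKM there, against 392.95 and 479.66 FPKM in LKO 1 and LKO 2 and 833.66 to 917.51 FPKM in CON. Mt2, a metallothionein gene, reached 576.55 FPKM (CON 2) and 263.94 FPKM (LKO 3), and lay at 10.99 to 82.70 FPKM in the other 4 libraries.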
